A study of Mus musculus with 4 samples.

Results

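Plasma cells of the mouse mammary gland were selected from single-cell RNA counts of CD45+ cells in 2 pooled libraries, called pool 1 and pool 2 here in the order of the years in their labels. A droplet was kept as a cell with at least 500 UMIs (unique molecules counted), 300 or more genes and no more than 10% of UMIs from mitochondrial genes. A cell was taken as a plasma cell with at least 10 UMIs of Jchain and at least 4 UMIs summed over Mzb1, Derl3, Sdc1 and Txndc5, and with no UMI of Cd3e, Cd3d, Cd3g or Siglech. This selected 1735 of 42781 cells: 1586 of 21604 (7.34%) in pool 1 and 149 of 21177 (0.704%) in pool 2. The groups are hash tags, antibodies that carry a short DNA barcode, and the deposited sheets name them Nulliparous, Gestation, Lactation and Germ-free in pool 1, and Gestation, Lactation, Involution, Regression, Balb/c, GF and Germ-free in pool 2. The sheet of pool 2 also names Nulliparous, whose tag had 1 count there, so that name has no cells in pool 2. Nulliparous means never pregnant, involution is the loss of milk epithelium and regrowth of fat once suckling ends, GF and Germ-free stand for animals raised without microbes, and Balb/c is an inbred strain. Titles of the libraries of pool 1 list involution and not germ-free, and those of pool 2 give a germ-free sample 1 time, so the name Germ-free on tag HT2 is disputed and is used only as the sheet gives it. For the remaining tags the strain is not given in the sources used here, and neither are ages, days of each stage, animals per tag, or what stage Balb/c and GF mice were in. Every tag is 1 sample per library. Cells of 1 tag are not replicates, and intervals given here cover counting error only.

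Plasma cells are the antibody-secreting end stage of the B cell lineage. They give up most of the B cell programme, enlarge the endoplasmic reticulum and turn a large part of their transcription to immunoglobulin. In the mammary gland, plasma cells that make IgA are known to gather around lactation. The joining chain encoded by Jchain links IgA or IgM into polymers, which the epithelium carries into milk.

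The values used by the selection are given as a description. Jchain in the selected cells ran from 35 to 1508 UMIs (median 256) in pool 1 and from 11 to 2329 (median 714) in pool 2. The lowest 3 values were 35, 41 and 41 UMIs in pool 1 and 11, 23 and 28 UMIs in pool 2, and no cell of pool 1 and 1 cell of pool 2 with 5 to 9 Jchain UMIs met the rest of the rule. The sum of the other 4 genes lay at its minimum of 4 in 91 cells of pool 1 and 3 of pool 2, and 49 and 2 cells lay just outside it at 3. Txndc5, an endoplasmic reticulum disulfide isomerase, was counted in 1584 of the 1586 cells of pool 1 and in all 149 of pool 2. Sdc1 (CD138), the surface proteoglycan used to sort plasma cells, was counted in 1251 and 138, and Derl3, a factor of protein export from the reticulum, in 1001 and 129. Mzb1, a chaperone of immunoglobulin assembly, contributed little: 87 UMIs in 79 cells of pool 1 and 32 UMIs in 30 cells of pool 2. Immunoglobulin, the product of plasma cells and no part of the selection apart from Jchain, took a median of 51.9% of a plasma cell's UMIs in pool 1 and 52.5% in pool 2. The lowest share in a single plasma cell was 15.1% in pool 1 and 0.737% in pool 2, so at least 1 of the 149 carried the selection genes with little of the product. The cells were large, with a median of 6596 UMIs against 1499 in all other cells of pool 1 and 13339 against 3033 in pool 2, and they held 21.9% of the UMIs of the kept cells in pool 1 against 2.42% in pool 2. Ptprc, which encodes the CD45 used to sort the sample, was low in them: 2.45 UMIs per 10000 UMIs outside immunoglobulin genes and Jchain (95% Poisson interval 2.31 to 2.59) in pool 1 and 3.30 (2.96 to 3.67) in pool 2, against 11.8 and 14.1 in B cells. All gene levels below are on this scale. The libraries shared 139 of their kept cell barcodes, among them 13 of the plasma cells of pool 1 and 2 of pool 2.

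Tags were missing from most plasma cells of pool 1. No tag was called on 1135 of 1586 plasma cells (71.6%, 95% exact interval 69.3 to 73.8%), against 12.5% of all cells of that library, and plasma cells made up 42.0% of all its untagged cells. A single tag was called on 378 and more than 1 on 73. In pool 2 only 14 of 149 plasma cells (9.40%) had no tag, against 10.1% of all cells, while 40 had more than 1 tag. The tagged and the untagged plasma cells of pool 1 were not alike. At least 3 UMIs of the markers of some other cell type (B, T, NK, myeloid, mast, stromal, epithelial or red cells, less the markers that plasma cells carry themselves) were found in 82 of 1135 untagged plasma cells (7.22%, 5.79 to 8.89%). The same held for 62.4% of those tagged Nulliparous, 63.0% of Gestation, 79.1% of Lactation, 65.6% of Germ-free and 84.9% of those with more than 1 tag. The interval of every tagged group lay above that of the untagged cells. Macrophage genes were the most frequent in the untagged cells (75 of 1135) and under every name, at 47 of 109 for Nulliparous, 39 of 119 for Gestation, 51 of 86 for Lactation and 19 of 64 for Germ-free, where NK cell genes were equally frequent. The complement gene C1qa stood at 1.15 per 10000 in untagged plasma cells and 6.34 in those with 1 tag, and the lysozyme gene Lyz2 at 1.26 and 14.3. Doublet calls by Scrublet ran the same way, at 0.617% of untagged plasma cells and 16.8 to 27.9% of those under a name. In pool 2 Scrublet called 0 of 149 plasma cells, the 40 with more than 1 tag included, against 26.2% of all cells with more than 1 tag. With each cell thinned to 2000 UMIs outside immunoglobulin, which left out 192 untagged and 12 tagged plasma cells, the shares with another type's markers were 6.79% (5.27 to 8.58%) and 53.0% (47.7 to 58.2%). In pool 2 the share was 10 of 40 for Involution, 25.6% for Regression and 72.5% for plasma cells with more than 1 tag, and 17.5%, 15.4% and 54.1% when thinned. What part these droplets play in the shares by name was not tested, so the plasma cell, IgA and lambda shares by name are given with and without them.

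**Figure D1:**
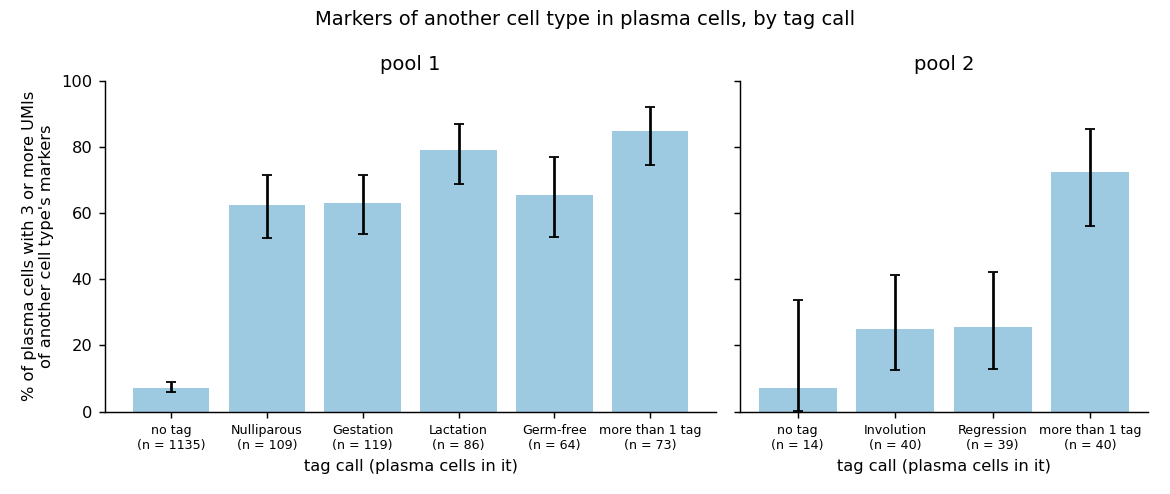
Share of plasma cells with 3 or more UMIs of another cell type's markers (vertical axis, %) by tag call, with the number of plasma cells under each bar; bars are shares and lines are exact 95% binomial intervals. In pool 1 the untagged bar stands at 7.22% and the bars of the 4 names between 62.4% and 79.1%; in pool 2 Involution (10 of 40) and Regression (10 of 39) stand well below the bar for more than 1 tag (29 of 40).

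The tag counts themselves set the pool 1 plasma cells apart from the other cells under the same name. The 4 barcodes of that library are shown because the result turns on telling HT6 from the rest; capitals mark a base that HT6 has at the same position, and HT2, HT4 and HT5 differ from it at 12, 11 and 12 of 15 positions.
HT6 (Lactation): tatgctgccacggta
HT4 (Nulliparous): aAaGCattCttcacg
HT5 (Gestation): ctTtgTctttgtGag
HT2 (Germ-free): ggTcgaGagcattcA
Plasma cells called Nulliparous had a median of 5 counts of HT6, those called Gestation 3 and those called Germ-free 4.5, against 0 in the other cells of each of these calls. At least 3 counts of HT6 were present in 67.0%, 56.3% and 76.6% of these plasma cells and in 9.85%, 10.2% and 9.35% of the other cells. The other tags were also more frequent in plasma cells than in other cells under the 4 names, by less than HT6, with no test. HT2 reached 3 counts in 19.3% against 16.2% under the Nulliparous call, 23.5% against 12.8% under Gestation and 24.4% against 22.9% under Lactation. HT4 reached 3 counts in 67.2% against 52.9% under Gestation, 74.4% against 59.5% under Lactation and 62.5% against 51.1% under Germ-free. For HT5 the shares were 27.5% against 17.7% under Nulliparous, 33.7% against 24.1% under Lactation and 23.4% against 18.3% under Germ-free. Of 86 plasma cells called Lactation, HT6 was the tag with the most counts in 70. Untagged plasma cells had a median of 4 counts of HT6, 3 of HT4, 1 of HT5 and 1 of HT2, while the other untagged cells had a median of 16 of HT6. In pool 2 HT6 had a median of 0 in the plasma cells of every call. The names on pool 1 plasma cells are therefore used as calls and not as known origins.

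**Figure D2:**
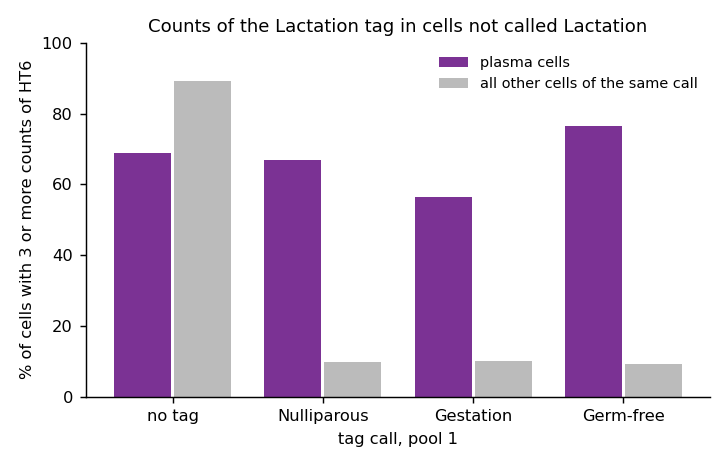
Share of cells with 3 or more counts of HT6, the Lactation tag (vertical axis, %), among pool 1 plasma cells and all other cells with no tag or called by another tag. Plasma cells stand at 56.3 to 76.6% under the 3 other names and the other cells at 9.35 to 10.2%; among untagged cells the other cells are the higher, at 89.2% against 68.7%.

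Among cells with a single tag call, plasma cells were a small share under every name. These shares leave out the 1135 of 1586 pool 1 plasma cells with no tag and the 73 with more than 1. The names those cells belong to are not known, so the values are not shares of whole samples. In pool 1 they were 109 of 5887 cells for Nulliparous (1.85%, 1.52 to 2.23%), 119 of 4618 for Gestation (2.58%, 2.14 to 3.08%), 86 of 2548 for Lactation (3.38%, 2.71 to 4.15%) and 64 of 2930 for Germ-free (2.18%, 1.69 to 2.78%). Nulliparous was the lowest and Lactation the highest, and the intervals of neighbours in the order Nulliparous, Germ-free, Gestation, Lactation overlapped. Without the cells that carried another type's markers the counts were 41, 44, 18 and 22 for Nulliparous, Gestation, Lactation and Germ-free, which is 0.696%, 0.953%, 0.706% and 0.751%, and all 4 intervals overlapped. In pool 2 there was 1 plasma cell among 3420 cells for Gestation and 1 among 1832 for Germ-free. Lactation had 0 of 795, which allows a share of up to 0.377% (3 counts), or 0.463% as the upper bound of the exact interval used for the other names. Involution had 40 of 2260 (1.77%, 1.27 to 2.40%) and Regression 39 of 2481 (1.57%, 1.12 to 2.14%), and these were the only pool 2 names above 1%. Balb/c had 7 of 2016 (0.347%) and GF 7 of 2177 (0.322%). Without the cells with another type's markers, 30 remained for Involution (1.33%, 0.897 to 1.89%), 29 for Regression (1.17%, 0.784 to 1.67%), 4 for Balb/c, 5 for GF and none for Gestation, and the intervals of Involution and Regression still lay above those of the other 5 names.

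**Figure D3:**
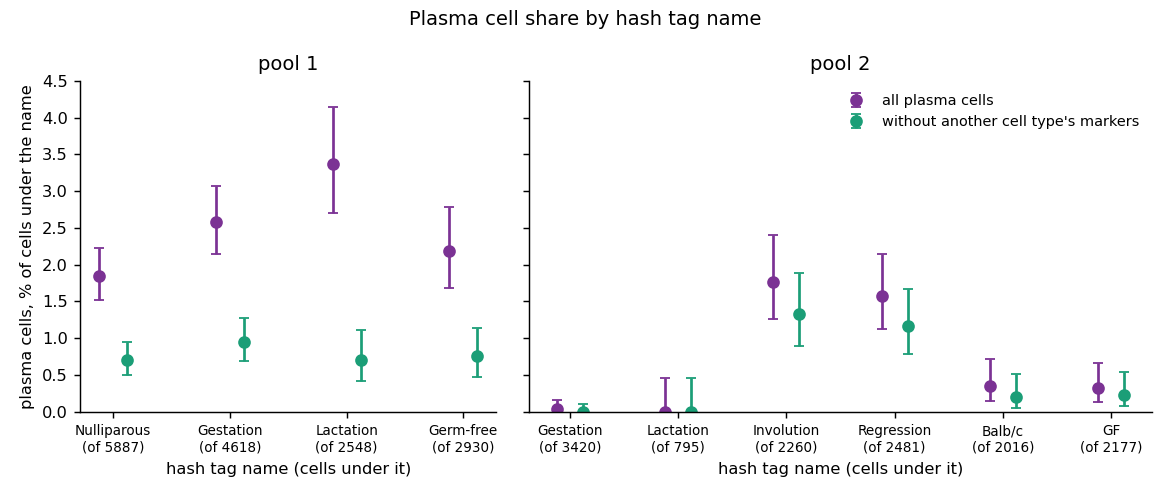
Plasma cells as a share of the cells under each hash tag name (vertical axis, %), for all plasma cells under it and for those without another cell type's markers. Lines are exact 95% binomial intervals. Untagged plasma cells (1135 of 1586 in pool 1) are not drawn. In pool 1 the 4 names spread from 1.85 to 3.38% and close up to 0.696 to 0.953% without the cells that carry another type's markers; in pool 2 Involution and Regression stand above the other 4 names drawn (Germ-free, with 1 plasma cell, is not drawn).

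Gestation and Lactation were the only undisputed names present in both libraries. In pool 1 the plasma cell share of Lactation minus that of Gestation was 0.798 percentage points. That sign did not hold under other settings: with cells thinned to 1000 UMIs Gestation stood at 2.14% and Lactation at 1.95%, and without cells carrying another type's markers at 0.953% and 0.706%. In pool 2 the difference was -0.0292 points, which rests on 1 of 3420 against 0 of 795 cells, so its sign cannot be read. The mean difference was 0.385 points, with p = 1 in an exact two-sided permutation test of names within libraries, whose smallest possible p is 0.5. As a share of plasma cells plus B cells (cells with B cell markers and few Jchain UMIs), the pool 1 values were 19.2% for Nulliparous, 27.2% for Gestation, 69.9% for Lactation and 32.7% for Germ-free. The Lactation value rests on only 37 B cells beside 86 plasma cells, against 459 and 318 B cells for Nulliparous and Gestation. Without the plasma cells that carried another type's markers these values were 8.20% (5.95 to 11%) for Nulliparous, 12.2% (8.97 to 16.0%) for Gestation, 32.7% (20.7 to 46.7%) for Lactation and 14.3% (9.17 to 20.8%) for Germ-free. Lactation remained the highest of the 4, with an interval that overlapped that of Germ-free alone and by little. In pool 2 Balb/c stood at 11.5% (4.74 to 22.2%, 54 B cells), Involution at 7.35% (504 B cells), Regression at 3.99% (938 B cells), GF at 1.32% and Gestation at 0.163%. There the values without another type's markers were 6.90% for Balb/c, 5.62% for Involution, 3.0% for Regression and 0.949% for GF. With all plasma cells counted, Lactation had 0 beside 33 B cells (upper bound 10.6%) and Germ-free 1 beside 68 (1.45%, 0.0367 to 7.81%). On this denominator Balb/c, with 7 plasma cells, was the highest, and its interval overlapped those of Involution, Regression, Lactation and Germ-free. The pool cannot be told apart from the set of names each pool holds.

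IgA was the product of nearly all of them. The heavy chain constant gene with the most UMIs was Igha in 1576 of 1586 plasma cells of pool 1 (99.4%, 98.8 to 99.7%) and in 131 of 149 of pool 2 (87.9%, 81.6 to 92.7%). Selection by Jchain favours cells that make IgA or IgM, so these shares describe the selected cells. A plasma cell of the Igha class carried a median of 1075 Igha UMIs in pool 1 and 2543 in pool 2. Igha from free RNA was also measured: T cells of pool 1 held 10.9 to 15.4 Igha UMIs per 10000 of all their UMIs under the 4 names, and T cells of pool 2 held 2.33 to 3.99. The 10 other plasma cells of pool 1 were 7 of Ighm (IgM), 2 of Ighg2b and 1 of Ighg1. The Ighm cells had 793 to 1418 Ighm UMIs against a median of 4 Igha UMIs, and T cells of pool 1 held 2.25 to 2.56 Ighm UMIs per 10000 of all their UMIs. The class rests on few UMIs in 1 Ighg2b cell, with 9, and the lowest Igha count among the Igha cells was 5 in pool 1 and 118 in pool 2. By name in pool 1, IgA was 105 of 109 for Nulliparous, 119 of 119 for Gestation, 85 of 86 for Lactation, 63 of 64 for Germ-free and 1132 of 1135 for untagged cells. Without the cells with another type's markers it was 38 of 41, 44 of 44, 18 of 18 and 21 of 22 under these names in the same order. The 18 others of pool 2 were 8 of Ighm, 7 of Ighg2b, 2 of Ighg2c and 1 of Ighg1. They spread over names unevenly: 36 of 40 plasma cells were IgA for Involution, 38 of 39 for Regression and 6 of 7 for Balb/c, but 3 of 7 for GF (42.9%, 9.90 to 81.6%), where 3 were IgM and 1 IgG2b. Without another type's markers IgA was 28 of 30 for Involution, 29 of 29 for Regression, 4 of 4 for Balb/c and 2 of 5 for GF. Among the 18, 1 Ighg2c cell had 6 Ighg2c UMIs and 1 Ighm cell had 19 Ighm UMIs, so their class is weakly founded. The IgA share could not be compared between Lactation and Gestation, because Lactation had no plasma cell in pool 2.

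The light chain shares of the pools had counting intervals that did not overlap, with 1 library each and no test. The intervals take cells as independent, while some pairs of heavy and lambda variable (V) segments recurred in pool 1. Ighv6-6 with Iglv1 was found in 76 plasma cells and Ighv4-1 with Iglv1 in 21. The kappa gene Igkc led in 1383 of 1586 plasma cells of pool 1 (87.2%, 85.5 to 88.8%) and in 142 of 149 of pool 2 (95.3%). Iglc1, the lambda 1 gene, led in 194 of pool 1 (12.2%, 10.7 to 13.9%) and 6 of pool 2 (4.03%, 1.49 to 8.56%). Iglc2 led in 7 and Iglc3 in 2 plasma cells of pool 1, and Iglc3 in 1 of pool 2. Under the pool 1 names the lambda share was 11.9% for Nulliparous, 11.8% for Gestation, 20.9% (12.9 to 31.0%) for Lactation and 20.3% (11.3 to 32.2%) for Germ-free, with 12.1% in untagged cells, and all these intervals overlapped. Without the cells with another type's markers the lambda count was 5 of 41 for Nulliparous, 0 of 44 for Gestation (upper bound 8.04%), 4 of 18 for Lactation and 5 of 22 for Germ-free, beside 12.2% (10.2 to 14.3%) of untagged cells. The interval of Gestation then lay below that of the untagged cells and overlapped those of the other names.

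A few variable segments recurred across the pool 1 plasma cells. A V segment was called where it had at least 10 UMIs and 80% of its chain's V UMIs, which gave a heavy and light pair in 694 plasma cells of pool 1 and 76 of pool 2. The 694 held 222 different pairs; 92 pairs were seen in at least 2 cells and these covered 81.3% of the 694. The 10 pairs seen in at least 10 cells covered 266 of them (38.3%). In pool 2 the 76 cells held 57 pairs, 14 of which were seen more than 1 time, covering 43.4% of the cells, and none reached 10. Ighv6-6 with Iglv1 was the most frequent, in 76 cells of pool 1, of which 54 were untagged, 4 Nulliparous, 5 Gestation, 8 Lactation, 2 Germ-free and 3 of more than 1 tag. Ighv1-76 was paired with Igkv16-104 in 44 cells and with Igkv1-133 in 37. Each of these 3 pairs was found under all 4 names, and every cell that held 1 of them was IgA. A pair was called in 48 plasma cells of Nulliparous, 48 of Gestation, 36 of Lactation and 27 of Germ-free. Of these, 72.9%, 81.3%, 80.6% and 88.9% had a pair that was also present among untagged cells. Larger samples share more pairs, and 508 of the 694 cells were untagged. Between libraries, 11 pairs were shared, which is 4.95% of the 222 and 19.3% of the 57, and none of the 10 frequent pairs of pool 1 was seen in pool 2. In pool 2 the most frequent were Ighv5-9-1 with Igkv5-43 in 5 cells and Ighv8-8 with Igkv10-96 in 4. Reads from the 3' end give no junction sequence, and near-identical V segments can split or share reads, so cells with the same pair are not shown to be of 1 clone.

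**Figure D4:**
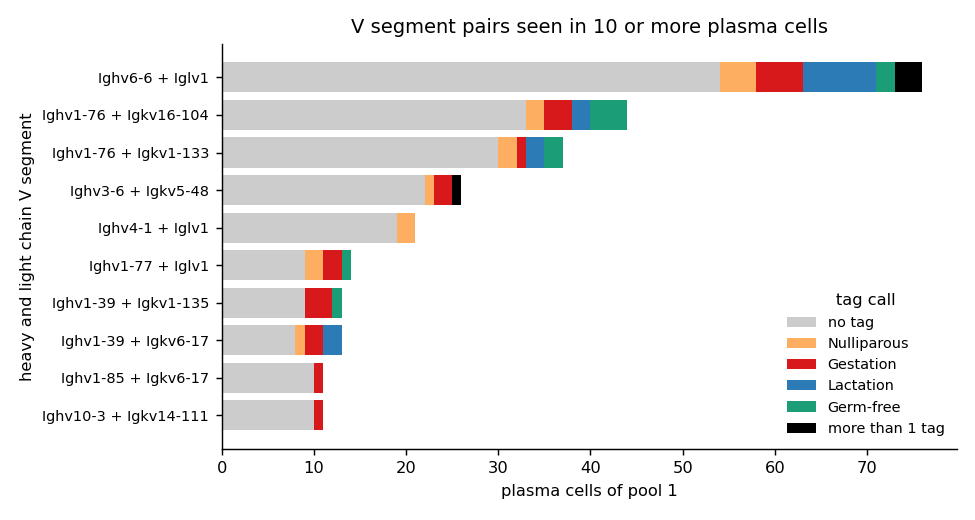
Number of pool 1 plasma cells (horizontal axis) with each heavy and light V segment pair seen in at least 10 cells, coloured by tag call. Untagged cells make up the largest share of every pair (54 of 76 for Ighv6-6 with Iglv1), and the 3 most frequent pairs hold cells of all 4 names.

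Plasma cell genes were then compared with B cells of the same libraries (1151 and 3490 cells). The selection used this contrast, so folds and counts are a description and nothing is tested. Of 8049 genes with at least 50 UMIs in each library, 661 (8.21%) were at least 2-fold higher in plasma cells in both libraries and 1070 (13.3%) were at least 2-fold lower. The median gene was lower by 0.44 (log2) in pool 1 and by 0.20 in pool 2. The gene entry CT010467.1, at 3323 per 10000 in pool 1 plasma cells and 1885 in B cells of that library, weighed on that scale. In pool 2 plasma cells its level was 0.30 times that in pool 1 plasma cells. Levels per 10000 that are set side by side for the 2 pools are therefore not on an equal scale. With it left out of the totals the counts were 808 higher and 856 lower, so 48.6% of the called genes were higher in place of 38.2%, and the medians were -0.16 and -0.14.

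Of the 6 regulators of the plasma cell state, 4 were at least 2-fold higher, and the list median was 4.05 (log2) in pool 1 and 4.19 in pool 2. Xbp1, the transcription factor of the secretory programme, stood at 25.7 (25.3 to 26.2) per 10000 in pool 1 plasma cells and 30.7 (29.7 to 31.8) in pool 2, against 0.810 and 0.987 in B cells. Prdm1, which encodes the repressor Blimp-1, was 25.3-fold and 27.4-fold higher, Tent5c, a poly(A) polymerase that stabilises immunoglobulin messages, 41.0-fold and 76.7-fold, and Ell2, an elongation factor for secreted immunoglobulin messages, 10.8-fold and 12.2-fold. Irf4, at 0.88 and 1.44 times the B cell level, and Zbtb20 passed in neither direction.

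The secretory and unfolded protein response list had 16 of 18 genes tested at least 2-fold higher and none lower, with a list median of 3.30 (log2) in pool 1 and 3.16 in pool 2. Fkbp11, a prolyl isomerase of the reticulum, was highest at 69.6-fold and 35.3-fold, and Calr, the chaperone calreticulin, lowest of the 16 at 2.38-fold and 2.30-fold. The translocon subunit Ssr4 stood at 35.0 per 10000 in pool 1 and 20.6 in pool 2, against 1.39 and 1.24 in B cells, and was counted in all 1586 plasma cells of pool 1. The chaperone Hspa5 (BiP) stood at 15.5 and 16.2 against 4.16 and 5.26. Hsp90b1, a chaperone of the same compartment, was 13.4-fold and 10.0-fold higher, Creld2, an isomerase-like stress gene, 23.0-fold and 18.1-fold, and Pdia6, a disulfide isomerase, 5.66-fold and 4.57-fold. The oxidase Ero1lb (Ero1b), at 1.39 and 0.94 times the B cell level, and the stress factor Atf4, at 0.93 and 1.59 times, passed in neither direction. All 16 remained at least 2-fold higher in the plasma cells without another type's markers.

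The promoters of these genes were read from a RefSeq table of GRCm38.p6 (18 of the 20 list genes matched) because a known element of this programme, the endoplasmic reticulum stress element, can be looked for by its letters. CCAAT followed after any 9 bases by CCACG was searched on both strands in windows of 300 bases around each start. It was present for 6 of the 18 genes, Hspa5, Hsp90b1, Pdia6, Creld2, Calr and Ero1b, and in 39 of all 32851 windows (0.119%). The element was first described in promoters of this kind, so the count is no independent finding. Among the 6, Ero1b did not reach 2-fold over B cells in either library. The core TGACGTGG was in none of the list's windows and in 0.676% of all, and the octamer ATTTGCAT, an element of immunoglobulin promoters, in none and in 1.74%. With no match to either of these, no match of the element overlapped another motif. A match describes letters and does not show a bound site. The 250 bases before the start are shown for 4 members with the element, with its fixed bases in capitals; on the reverse strand these read CGTGG and ATTGG.
Hspa5, chr2:34771840-34772089, plus strand: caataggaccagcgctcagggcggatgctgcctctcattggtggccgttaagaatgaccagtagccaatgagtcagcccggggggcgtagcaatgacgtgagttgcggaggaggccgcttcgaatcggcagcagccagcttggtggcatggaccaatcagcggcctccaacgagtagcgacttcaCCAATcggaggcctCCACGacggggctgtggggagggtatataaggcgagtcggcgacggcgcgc
Hsp90b1, chr10:86705445-86705694, minus strand: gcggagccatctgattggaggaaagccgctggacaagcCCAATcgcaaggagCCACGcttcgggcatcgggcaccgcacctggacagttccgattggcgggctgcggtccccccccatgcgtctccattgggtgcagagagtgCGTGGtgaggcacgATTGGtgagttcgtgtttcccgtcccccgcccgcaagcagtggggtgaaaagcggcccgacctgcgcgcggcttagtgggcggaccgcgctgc
Pdia6, chr12:17266339-17266588, plus strand: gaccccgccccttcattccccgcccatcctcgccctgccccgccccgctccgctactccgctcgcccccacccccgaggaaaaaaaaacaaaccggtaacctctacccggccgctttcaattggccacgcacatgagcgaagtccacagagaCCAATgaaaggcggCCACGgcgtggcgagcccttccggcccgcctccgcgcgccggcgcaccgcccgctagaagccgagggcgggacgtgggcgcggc
Creld2, chr15:88819396-88819645, plus strand: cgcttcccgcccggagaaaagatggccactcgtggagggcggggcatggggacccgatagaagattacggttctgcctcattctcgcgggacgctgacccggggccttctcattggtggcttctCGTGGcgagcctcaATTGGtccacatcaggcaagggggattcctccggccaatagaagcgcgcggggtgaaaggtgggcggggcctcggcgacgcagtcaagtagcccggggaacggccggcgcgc
Hsp90b1 holds the element 2 times, beginning 212 and 107 bases before the start. In Hspa5 it begins 65 bases before the start, in Pdia6 98 and in Creld2 126.

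The B cell programme lay the other way, with 13 of 16 genes at least 2-fold lower and none higher and list medians of -3.99 and -2.56 (log2). Ms4a1 (CD20) stood at 0.121 per 10000 in pool 1 plasma cells and 0.780 in pool 2, against 12 and 11.7 in B cells. The lineage factor Pax5 was 75.2-fold and 21.4-fold lower. Cd79b was 3.72-fold and 2.86-fold lower, while its partner Cd79a, outside the list, was still counted in 1080 of 1586 and 144 of 149 plasma cells. The class II gene H2-Aa, at 11 and 16.7 against 40.5 and 42.4, was lower, and Cd74, H2-Ab1 and H2-Eb1 did not reach 2-fold in both libraries. These genes moved with the droplets that carry another type's markers. Without those, H2-Aa stood at 1.70 in pool 1 and 3.81 in pool 2, Ms4a1 at 0.0794 and 0.0622, and all 16 genes were at least 2-fold lower.

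**Figure D5:**
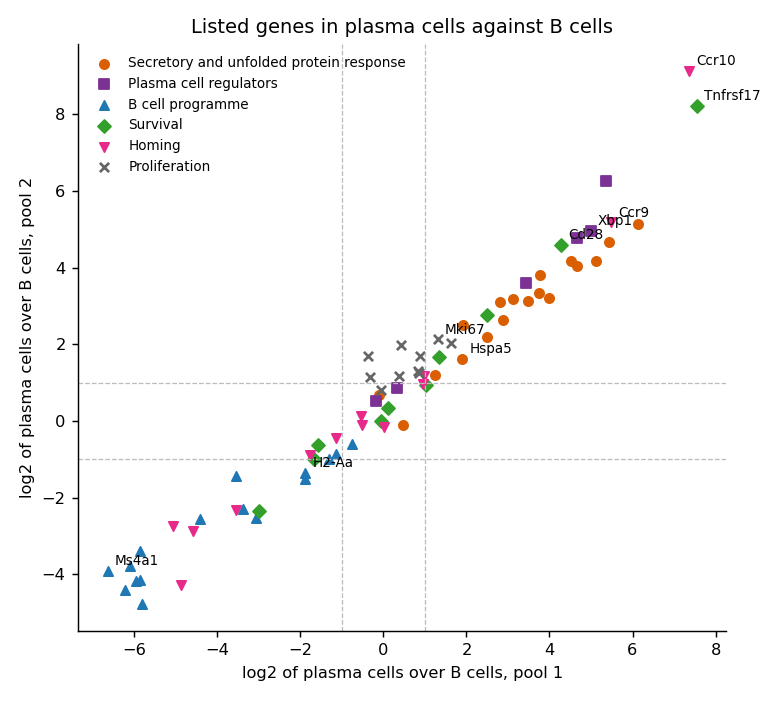
Genes of 6 lists by log2 of their level in plasma cells over B cells, in pool 1 (horizontal axis) and pool 2 (vertical axis); each point is a gene and dashed lines mark 2-fold. Secretory genes lie above 2-fold apart from 2, the B cell programme lies below 0, and Ccr10 and Tnfrsf17 are the points farthest to the upper right.

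Genes of plasma cell survival, receptors among them, were split, with 4 of 10 at least 2-fold higher and 1 lower and list medians of 0.57 and 0.64 (log2). Tnfrsf17 encodes BCMA, the plasma cell receptor for APRIL and BAFF. It stood at 3.85 (3.68 to 4.02) per 10000 in pool 1 and 3.38 (3.03 to 3.75) in pool 2, against 0 UMIs in 1151 B cells of pool 1 (at least 187-fold higher, with 3 counts over the group as floor) and 0.0113 in pool 2. Cd28, a costimulatory receptor that long-lived plasma cells also carry, stood at 2.15 and 1.91 against 0.110 and 0.0790. Slamf7 was 5.63-fold and 6.74-fold higher and Il6st, the signalling chain of the IL-6 receptor, 2.52-fold and 3.16-fold. Tnfrsf13c, the BAFF receptor of B cells, was 7.92-fold and 5.06-fold lower. Tnfrsf13b (TACI), at 2.04-fold and 1.93-fold, missed the 2-fold mark in pool 2 and passed it without CT010467.1 and without the cells carrying another type's markers, and Mcl1, Bcl2, Il6ra and Cd9 passed in neither direction.

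Among 13 homing genes tested, 2 were at least 2-fold higher and 4 lower, with list medians of -0.55 and -0.15 (log2). Ccr10, the receptor for the epithelial chemokine Ccl28, stood at 3.41 (3.25 to 3.57) per 10000 in pool 1 plasma cells and 2.89 (2.57 to 3.23) in pool 2, against 0.0206 (0.00425 to 0.0602) and 0.00513 (0.00167 to 0.0120) in B cells. Ccr9, the receptor for the gut chemokine Ccl25, stood at 0.919 (0.837 to 1.01) and 0.856 (0.688 to 1.05), against 0.0137 (2 UMIs, 0.00166 to 0.0496) and 0.0236 (0.0150 to 0.0354). Thinned to 2000 UMIs, Ccr10 was counted in 44.9% and 40.3% of plasma cells and Ccr9 in 15.8% and 13.9% (56.7% and 68.5%, and 22.2% and 29.5%, unthinned). Of the thinned B cells, 0 of 146 and 2 of 1906 had Ccr10. Unthinned, 208 plasma cells of pool 1 had both receptors, 691 Ccr10 alone, 144 Ccr9 alone and 543 neither. Ccr10 was counted in 59.1% of the plasma cells with Ccr9 and 56.0% of those without in pool 1, and in 84.1% and 61.9% in pool 2. Among the lower genes were the lymph node chemokine receptor Ccr7, the egress receptor S1pr1 and Cxcr4. S1pr1 was 23.9-fold and 7.34-fold lower and Cxcr4 11.7-fold and 5.0-fold lower. Itgb7, the integrin chain of gut homing, was at 1.01 and 0.90 times the B cell level. Selplg and Cd44 passed 2-fold higher when CT010467.1 was left out, and Cd44 also in the plasma cells without another type's markers, where Ccr2 was lower.

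Class and receptor went together in pool 2. The 18 plasma cells of IgM or IgG had no UMI of Ccr10 and none of Ccr9, with an upper 95% bound of 0.269 per 10000 for each, against 3.32 (2.96 to 3.72) for Ccr10 and 0.984 (0.791 to 1.21) for Ccr9 in the 131 of IgA. With cells thinned to 2000 UMIs, 0 of 16 and 58 of 128 had Ccr10. In pool 1, 2 of the 10 IgM or IgG plasma cells had Ccr10, which gave 0.702 per 10000 (0.0850 to 2.54) against 3.42 in IgA cells. Tnfrsf17 was lower in the 18 cells of pool 2 at 1.31 (0.777 to 2.07) against 3.69 (3.30 to 4.10), while Xbp1 was at 27.4 (24.7 to 30.3) against 31.2 (30.1 to 32.4). In pool 1, thinned to 2000 UMIs, Tnfrsf17 was counted in 4 of 9 IgM or IgG cells and 670 of 1373 IgA cells. Unthinned in pool 2, another type's markers were in 44.4% of the 18 and 37.4% of the 131. At least 2 UMIs of Mki67 plus Top2a were in 27.8% and 9.92%. Thinned to 2000 UMIs, the order for another type's markers was the opposite, with 3 of 16 IgM or IgG cells and 33 of 128 IgA cells. The Mki67 plus Top2a minimum was then met by 4 of 16 and 4 of 128. The split of receptors by class was found by looking through the strata, it rests on 18 cells of several names in 1 library, and no test over samples was possible.

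Of 10 proliferation genes, Mki67 and Ube2c were at least 2-fold higher than in B cells and none was lower, with list medians of 0.63 and 1.5 (log2). Mki67 was 2.48-fold and 4.40-fold higher and Ube2c 3.11-fold and 4.09-fold. At least 2 UMIs of Mki67 plus Top2a were found in 111 of 1586 plasma cells of pool 1 (7.0%, 5.79 to 8.37%) and 18 of 149 of pool 2 (12.1%, 7.32 to 18.4%). Thinned to 2000 UMIs, these were 4.63% (3.58 to 5.88%) and 5.56% (2.43 to 10.7%). B cells at the same depth stood at 8.22% (4.32 to 13.9%) in pool 1, where 1005 of 1151 were too shallow to keep, and at 1.78% (1.24 to 2.48%) in pool 2. In pool 1 untagged plasma cells stood at 3.61% (2.51 to 5.0%) and tagged ones at 6.01% (3.81 to 8.96%) when thinned. Without cells that carry another type's markers, Ube2c no longer passed and Mki67 was 2.84-fold and 2.73-fold higher. With CT010467.1 left out of the totals, Birc5, Cdk1 and Ccnb2 passed too.

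The 20 genes outside the selection that most exceeded all other cells were led by Prg2, which encodes the major basic protein of eosinophils. Prg2 stood at 1.40 (1.3 to 1.5) per 10000 in pool 1 plasma cells and 5.66 (5.21 to 6.13) in pool 2, 38.7-fold and 147-fold above all other cells. Next came the GTPase gene Nuggc at 37.4-fold and 67.1-fold and Tnfrsf17 at 34.6-fold and 103-fold. Slpi, an inhibitor of leukocyte proteases that is secreted into mucosal fluids, was at 26.2 (25.7 to 26.6) and 46.9 (45.6 to 48.2) per 10000, against 0.309 and 0.0944 in B cells. Bhlha15 (Mist1), a factor of secretory cells, was 18.6-fold and 79.1-fold above all other cells. The calcium channel genes Cacna1h and Cacna1s were 28.3-fold and 123-fold, and 18.3-fold and 54.1-fold. Metabolic genes in the list were Pycr1 of proline synthesis, at 31.4-fold and 63.6-fold, and Asns of asparagine synthesis, at 19.7-fold and 18.3-fold. Others known from other tissues were Reln (reelin) at 19.6-fold and 63.7-fold, the agouti gene a at 31.8-fold and 176-fold, and Oosp1 of oocytes at 32.0-fold and 71.4-fold. Kcnmb4os2, Eaf2, Pls1, Ccr10, Gm30211, Fam214a, Edem2 and Tram2 completed the list. Epcam, an epithelial adhesion gene, was counted in 39.4% of plasma cells of pool 1 and 53.0% of pool 2, at 1.72 and 1.29 per 10000 against 0.124 and 0.170 in B cells.

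Levels across the names of 1 library are given with counting intervals only, since each name is 1 sample. In pool 1 Ccr10 stood at 2.26 (1.84 to 2.74) for Nulliparous, 3.63 (3.10 to 4.23) for Gestation, 2.41 (1.95 to 2.95) for Lactation, 2.97 (2.34 to 3.72) for Germ-free and 3.88 (3.67 to 4.11) in untagged cells. Gestation was the highest name. Without cells carrying another type's markers Ccr10 read 2.45, 4.47, 3.52 and 2.76, and the intervals of Gestation (3.47 to 5.67) and Nulliparous (1.68 to 3.44) still did not overlap. Tnfrsf17 had the same order at its top, with 4.49 (3.90 to 5.16) for Gestation against 2.94 to 3.13 for the others. Xbp1 read 18.6, 21.7, 17.4 and 20.5 for Nulliparous, Gestation, Lactation and Germ-free, all below the 30.4 (29.8 to 31.1) of untagged cells. Another type's markers were present in 62.4 to 79.1% of the plasma cells under these names and in 7.22% of untagged ones. The part of those droplets in the Tnfrsf17 and Xbp1 levels was not tested. Hspa5 was highest for Lactation at 17.4 (16.2 to 18.8) and lowest for Gestation at 11.4 (10.5 to 12.5). Without the cells with another type's markers Hspa5 was 31.5 (27.3 to 36.1) in the 18 cells of Lactation and 12.7 to 18.7 under the other 3 names.

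Among the genes followed by name in pool 2, the protease inhibitor gene Slpi had the widest range. It stood at 66.7 (63.6 to 69.8) per 10000 for Involution and 67.6 (64.3 to 71.2) for Regression, against 21.5 (17.5 to 26.1) in the 7 cells of Balb/c and 3.19 (1.70 to 5.45) in the 7 of GF. Slpi without the cells that carry another type's markers read 84.1, 85.9, 30.8 and 5.01 in the same order. Slpi in pool 1 lay between 19.4 and 22.3 under the 4 names, and between 17.4 and 36.7 (Germ-free) without those cells. Xbp1 in pool 2 was 31.0 for Involution, 39.9 for Regression, 29.4 for Balb/c and 36.3 for GF, so the GF cells were low in Slpi and not in Xbp1. Ccr10 was 3.06, 3.22, 6.02 and 2.70, and Tnfrsf17 3.92, 4.35, 5.16 and 3.43, with overlapping intervals for Tnfrsf17. Each of Balb/c and GF is 1 sample with 7 plasma cells, and 4 of the 7 of GF were of IgM or IgG.

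Ligands that draw or support plasma cells were looked for in the other cells. Ccl28, the ligand of Ccr10, had 0 to 6 UMIs per name in both libraries, and Tnfsf13 (APRIL), a ligand of BCMA, 0 to 5, so neither was detectable at this depth beyond a few molecules. Tnfsf13b (BAFF) was counted under every name, at 0.476 (Germ-free) to 1.89 (Gestation) UMIs per 100000 in pool 1 and 0.399 (Regression) to 1.22 (GF) in pool 2. Ccl25, the ligand of Ccr9, was also counted under every name. It stood at 0.736 (Germ-free) to 0.928 (Gestation) per 100000 in pool 1 and 0.81 (Lactation) to 1.23 (Balb/c) in pool 2. Cxcl12, the stromal ligand of Cxcr4, was at 5.44 (4.94 to 5.96) per 100000 for Regression and 1.91 (1.62 to 2.23) for Involution in pool 2, against 0.470 to 0.960 for Gestation, Lactation, Balb/c and GF, and at 14.4 for the disputed Germ-free tag, which had 1 plasma cell. At least 3 UMIs of fibroblast and endothelial markers were present in 7.10% of the other cells for Germ-free, 3.40% for Regression and 1.98% for Involution, against 1.13% (Lactation) to 1.54% (Balb/c) for the rest, and their part in the Cxcl12 levels was not tested. Vcam1, an adhesion partner of plasma cells, was highest for Involution at 5.41 (4.93 to 5.93). The sort kept CD45+ cells, so epithelial and stromal sources of these ligands were mostly not sampled.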

How the data were processed

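Droplet libraries of mammary CD45+ cells were made with the 10x Genomics 3' v3.1 chemistry, per the labels' protocols; cells from glands digested with collagenase were pooled under hash tags. Cell Ranger 6.1.0 and mm10 are named, per the submitters' processing notes, and the pool 1 matrix gives Cell Ranger 4, per the file headers. The gene and tag matrices hold raw UMI counts as deposited; the pool 1 gene matrix lists 1347735 barcodes and 56300251 UMIs, the pool 2 matrix 21632 barcodes, all with at least 500 UMIs, and 90642638 UMIs. The kept cells had a median of 1599 UMIs and 740 genes in pool 1 and 3049 and 1439 in pool 2. Genes were matched by symbol (55253; 234 entries that share a symbol were left out, Ddit3 among them).

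Tags were called with HTODemux (Seurat 5.3.0, R 4.3.3) at quantile 0.99 on named tags with at least 100 counts; Nulliparous had 1 count in pool 2. Scrublet (scanpy 1.11.5) ran per library at an expected rate of 0.08, and its calls were kept and marked. Droplets with more than 1 tag were kept apart from the names. B cells had at least 2 UMIs of Cd79a plus Cd79b, at least 1 of Ms4a1 plus a further marker that is not reported here and under 10 of Jchain, with no Cd3 or Siglech UMI; T cells had at least 2 Cd3 UMIs, no Cd79a or Ms4a1 and under 10 of Jchain. Markers of another type exclude Bst2, Ccr9, Runx2, Epcam, Cd79a and Cd79b, a choice made after their values were seen. Levels are summed UMIs per 10000 UMIs outside immunoglobulin genes and Jchain, with exact Poisson intervals; shares have exact Clopper-Pearson intervals at 95%. The script of the fold calls was tested on simulated data. Shares were to be compared as log2 values; with a share of 0 the difference in percentage points was used. A fit of genes between Lactation and Gestation needed at least 10 plasma cells in each sample and was not run. Named genes are the selection genes, the 20 with the highest ratio to other cells in the library where that ratio is lower (at least 50 UMIs in each) and genes of the lists with at least 10 UMIs; Ptprc, C1qa, Lyz2, Cd79a, Epcam and CT010467.1 were chosen after their values were seen. The members and lists were chosen with earlier results of these data known. Labels do not say that samples came from separate animals.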

Additional observations from a re-analysis of the deposited data

Results flagged for a closer look

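The plasma cell share of Lactation minus Gestation was 0.798 percentage points in pool 1 and -0.0292 in pool 2. The pool 2 value rests on 1 of 3420 against 0 of 795 cells, so its sign cannot be read, and the difference between the libraries was not tested.

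Droplets outside the plasma cell selection carried its signal. In pool 1, 252 droplets met the Jchain and marker minimums and held a Cd3 UMI, 251 of them with Igha as the leading class; 100 had a single Cd3 UMI, 61.1% had 1 tag and 12.3% none, and 28.2% were Scrublet calls. In pool 2 there were 55 such droplets, with a median of 3263 genes, and 40 had more than 1 tag.

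Tags without a name in the sheets were also counted in pool 1 plasma cells. HT1 had 59 counts (37.2 per 1000 plasma cells against 62.1 per 1000 other cells) and HT9 had 15 (9.46 against 14.3). Tag reads matched to no tag came to 9178, a median of 4 per plasma cell against 9 in other cells.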

How the results depend on the processing

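The Lactation minus Gestation difference in share was paired within each library, which gives 2 pairs. No paired analysis was possible for genes because Lactation had no plasma cell in pool 2. The p of the difference was 1 under every alternative that kept both libraries, and its size ran from -0.0292 to 0.798 with either library left out. It reversed to -0.0929 with cells thinned to 1000 UMIs (Jchain at least 5, the others at least 2) and to -0.123 without cells carrying another type's markers, an alternative chosen after seeing the data, and was 1.21 with the tag of most counts, against 0.385. With that tag call Involution fell from 1.77 to 1.02%, below Regression at 1.43%, and pool 1 Lactation was 4.87% in place of 3.38%. Thinning took these shares to 1.22% for Involution, 1.09% for Regression and 1.95% for Lactation. The IgA share of pool 2 moved from 87.9 to 94.4% when thinned, and that of pool 1 from 99.4 to 99.7% without Scrublet calls. The untagged share of pool 1 plasma cells, 71.6%, was 58.6% with the tag of most counts (at least 10 counts and 60% of named tags), 77.2% without Scrublet calls and 88.6% without cells carrying another type's markers. The share of pool 1 cells in V pairs of 10 or more cells, 38.3%, was 43.4% with V segments of at least 5 UMIs and 32.6% without another type's markers; in each case the cause was not tested. Of 90 recomputed shares by name, 60 stayed inside the interval of the value in the report and 30 did not, 9 of them because the denominator was plasma plus B cells. Of 28 recomputed counts of list genes against B cells, 25 stayed within 1.5 times; the 3 others were proliferation genes higher (2, against 1 without another type's markers and 5 without CT010467.1) and homing genes higher (2, against 4 without CT010467.1). The gene fit of Lactation against Gestation and its alternatives were not run. Depth limits Ccl28, Tnfsf13 and all names with fewer than 10 plasma cells.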
